A study of Mus musculus with 10 samples.

Results

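The protocadherins measured here were the 34 mouse genes whose symbol starts with Pcdh and that had a probe set of the array to themselves, out of 19938 genes tested in the same way. Probe sets, groups of probes that together report a transcript, were taken only where the platform annotation gave exactly 1 gene symbol, and the brightest was kept for each gene. Of the 34 genes, 22 were Pcdhb genes, which lie side by side on chromosome 18, and 12 were non-clustered genes outside the clusters. The Pcdha genes shared 1 probe set annotated with 14 symbols, so it is given as a value of the cluster and not of a gene. Pcdhg genes were not analysed here.

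The arrays measured RNA of the whole hippocampus, right and left together, of male mice aged 16 weeks, with 1 array per mouse. The sample labels give the background as C57BL/6N, whereas the study's methods name C57BL/6J for its duplication lines. The 5 Dp1Rhr mice carried an extra copy of the chromosome 16 interval bounded by Cbr1 and Fam3b, used as a model of part of the trisomy of Down syndrome. The 5 control mice were wild-type littermates, labelled as controls in common for the Dp1Rhr, Dp5Yah and Dp5/Dp1 mice, and whether each shared a litter with a Dp1Rhr mouse is not stated. None of the 34 genes lies on chromosome 16, so none of them is among the duplicated genes. The comparison asks whether the hippocampal RNA of these adhesion genes differed when the duplicated interval was present. In bulk tissue, fewer cells of a type and less RNA per cell cannot be told apart.

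Protocadherins are a large family of cadherin-like adhesion proteins and are found mainly in neurons. Each neuron switches on its own small set of promoters in the Pcdha, Pcdhb and Pcdhg clusters, under the control of DNA methylation and of loops held by CTCF and cohesin, and the resulting isoforms bind like to like between membranes so that branches of the same cell recognise and avoid each other. Non-clustered protocadherins are mostly expressed by particular cell groups, where they act in axon growth, circuit formation and the making and removal of synapses, and in part signal to the actin cytoskeleton through the WAVE complex.

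None of the 34 genes passed the threshold in limma, an adjusted p below 0.05 with Benjamini-Hochberg adjustment over all genes, against 0.802% of the 19938 genes (0.176% lower in Dp1Rhr), a share that moved widely when single arrays were left out. FCROS, the rank method used by the study, was coded anew here. It called 2 of the 34, Pcdh11x and Pcdhb13, both lower, against 5.39% of all genes (1.99% lower). At an unadjusted p below 0.05, 6 of the 34 were lower in Dp1Rhr, where 6.44% of all genes were lower at that level, and 0 of the 34 were higher, where 8.55% of all genes were. The mean was lower in Dp1Rhr for 27 of the 34 genes, which was 18 of 22 Pcdhb genes and 9 of 12 non-clustered genes, beside 50.1% of all genes tested. In no protocadherin gene did the 5 Dp1Rhr arrays and the 5 control arrays lie fully apart, which 3.52% of all genes did (1.7% with Dp1Rhr lower). All values below are log2 signal, on which a difference of 1 is a doubling, and each difference is Dp1Rhr minus control.

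The median difference was -0.07 over the 22 Pcdhb genes and -0.06 over the 12 non-clustered genes, where the median over all genes was -7.6e-05. Of the 27 members at or above the 40th percentile of mean signal, 22 had a lower mean in Dp1Rhr, beside 50.3% of all genes at or above it. Single genes ranged from -0.31 in Pcdh11x to 0.07 in Pcdhb11, and their standard errors (SE) from 0.03 to 0.09. The 95% confidence intervals of the 34 genes reached down to -0.52 and up to 0.20, and lay wholly below 0 in 6 of them. The count of 27 ranged from 27 to 30 when each array was left out in turn, and was 29 after a second quantile normalization of the arrays and 27 after centring each on its median. The members share arrays, and the Pcdhb genes also share sequence, so the 34 differences are not independent of each other. Whether the surplus of lower means went beyond what such shared variation gives was not tested.

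**Figure D1:**
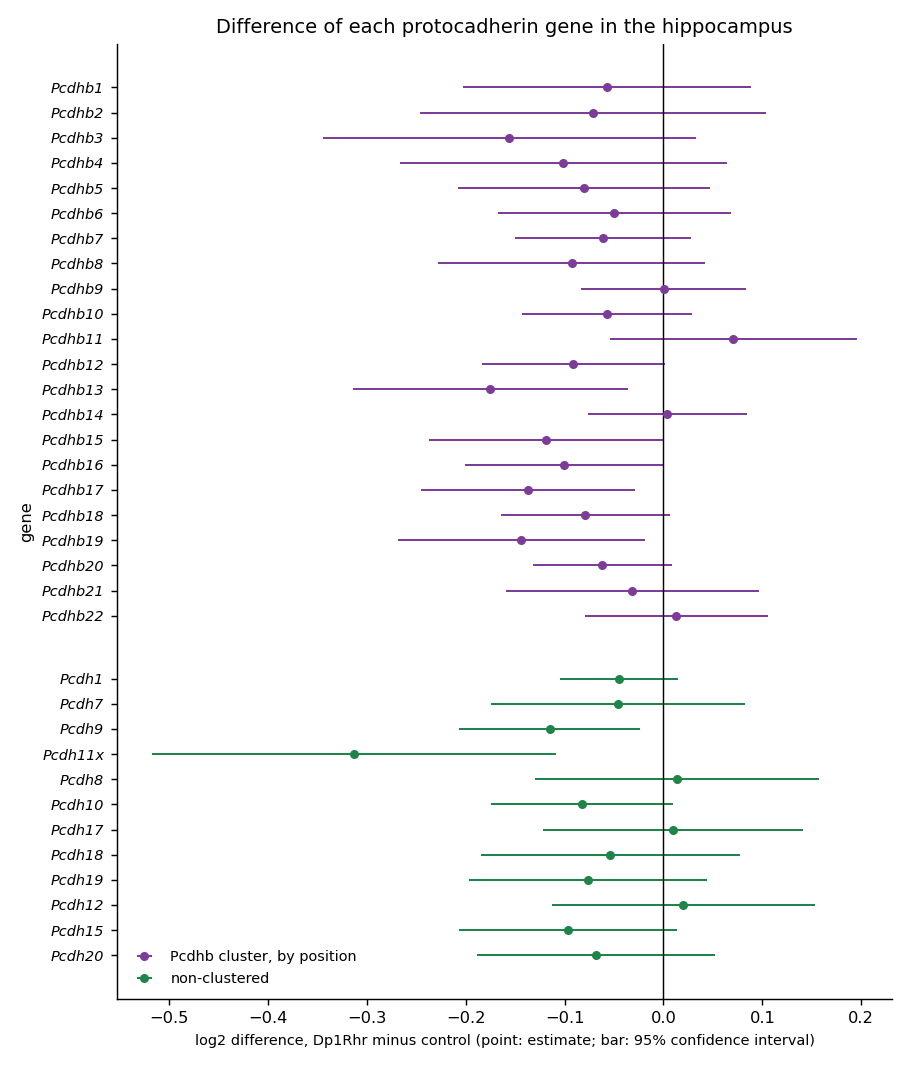
Log2 difference in signal between Dp1Rhr and control hippocampus (x axis) for each of the 34 protocadherin genes (y axis), with the 22 Pcdhb genes in chromosomal order above and the 12 non-clustered genes below. Points are limma estimates and bars are 95% confidence intervals, n = 5 arrays per group, and 27 of the 34 points lie below 0, most of them with an interval that includes 0.

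**Figure D2:**
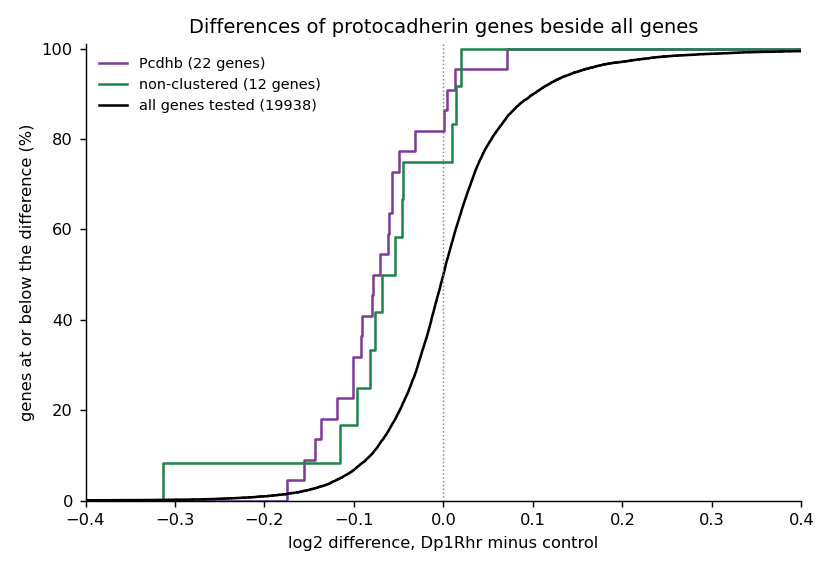
Cumulative share of genes (y axis, percent) at or below each log2 difference between Dp1Rhr and control (x axis, drawn from -0.4 to 0.4), for the 22 Pcdhb genes, the 12 non-clustered genes and all 19938 genes tested. Over most of the range both protocadherin curves run to the left of the curve for all genes, with medians of -0.07 and -0.06, and the shared arrays and sequences make these curves descriptive.

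Among the delta1 protocadherins, which carry a conserved intracellular motif able to bind protein phosphatase 1, all 4 genes had a lower mean in Dp1Rhr, with a median difference of -0.08. Pcdh11x, an X-linked neuronal adhesion gene (X:120290238-120910622, coordinates from RefSeq, GRCm38), had the lowest p of the 34. Its signal on Dp1Rhr replicates 1 to 5 was 8.17, 8.19, 8.48, 8.31 and 8.39, and on control replicates 1 to 5 it was 8.55, 8.99, 8.47, 8.60 and 8.50. Thus 4 of 5 Dp1Rhr arrays lay below every control array, Dp1Rhr replicate 3 just above control replicate 3, and control replicate 2 stood well above the rest of its group. The difference was -0.31 ± 0.09 SE, or 0.805-fold (95% confidence interval -0.52 to -0.11, limma adjusted p = 0.131). An exact two-sided permutation test, which goes through the 252 ways to pick 5 of the 10 arrays and cannot give a p below 0.00794, gave p = 0.0159 for this gene alone. Permutation p-values here and below are not adjusted. They are given for genes picked by a small limma p on the same arrays. Without control replicate 2 the Pcdh11x difference was -0.22.

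Pcdh9, a delta1 gene with broad neuronal expression, was the other non-clustered gene below an unadjusted p of 0.05. Its signal was 10.99, 11.00, 11.05, 10.95 and 11.01 on the Dp1Rhr arrays, against 11.17, 11.24, 11.02, 11.05 and 11.09 on the control arrays. Here too 4 of 5 Dp1Rhr arrays lay below every control array, and control replicates 1 and 2 were the highest of all 10. The difference was -0.12 ± 0.04 SE, or 0.923-fold (95% confidence interval -0.21 to -0.02, limma adjusted p = 0.215, exact permutation p = 0.0238). A second Pcdh9 probe set, which is not independent of the brighter one since the 2 correlated at 0.989 over the 10 arrays, had a difference of -0.13 ± 0.04 SE. The other delta1 genes were Pcdh1, an adhesion gene also known from airway epithelium, with -0.04 ± 0.03 SE, and Pcdh7, which acts in axon growth in retina, with -0.05 ± 0.06 SE. Without control replicate 2 the Pcdh7 difference was -0.0056.

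The delta2 protocadherins lack that motif, and several bind the WAVE complex. Of these 5 genes, 3 had a lower mean in Dp1Rhr, the median difference was -0.05, and every 95% confidence interval included 0. Pcdh10, which takes part in activity-dependent synapse removal, averaged 10.11 ± 0.04 in Dp1Rhr and 10.19 ± 0.09 in control (SD, n = 5 each), a difference of -0.08 ± 0.04 SE (limma adjusted p = 0.395). Pcdh19, the X-linked gene of a human epilepsy, averaged 9.93 ± 0.07 in Dp1Rhr and 10.01 ± 0.11 in control (SD, n = 5 each), a difference of -0.08 ± 0.06 SE. Pcdh18 differed by -0.05 ± 0.06 SE and had dim signal. Without control replicate 2 the differences were -0.05 for Pcdh10 and -0.01 for Pcdh18.

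The other 2 delta2 genes had differences close to 0. Pcdh8, also called arcadlin, which is induced by neuronal activity and drives the uptake of N-cadherin from synapses, differed by 0.01 ± 0.07 SE, and control replicate 3 was its highest array at 8.40. Pcdh17, an adhesion gene of presynaptic sites in forebrain circuits, differed by 0.01 ± 0.06 SE. The 95% confidence interval ran from -0.13 to 0.16 for Pcdh8 and from -0.12 to 0.14 for Pcdh17, so neither is shown to be equal in the groups. Left-out single arrays moved the difference between -0.02 and 0.07 for Pcdh8 and between -0.04 and 0.05 for Pcdh17.

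Outside the delta families, Pcdh15, which forms the lower part of the tip link of inner ear hair cells and is also expressed by oligodendrocyte precursors, averaged 7.27 ± 0.09 in Dp1Rhr and 7.36 ± 0.08 in control (SD, n = 5 each), a difference of -0.10 ± 0.05 SE (limma adjusted p = 0.410). Its 2 probe sets correlated at only 0.524 over the 10 arrays, and the dimmer one differed by -0.04 ± 0.05 SE. Pcdh20, a neuronal adhesion gene, differed by -0.07 ± 0.06 SE. Pcdh12, an adhesion gene of endothelial cells, was dim and differed by 0.02 ± 0.06 SE, and that sign turned when control replicate 3, its lowest array at 6.08, was left out.

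**Figure D3:**
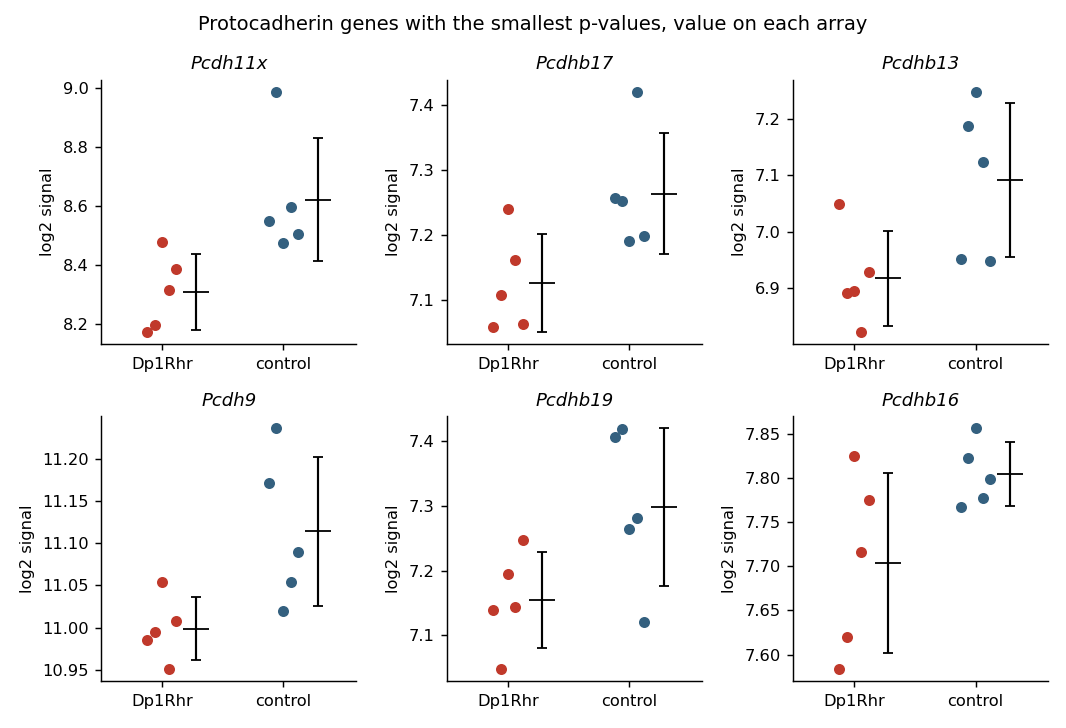
Log2 signal (y axes, which start above 0) of the 6 protocadherin genes with an unadjusted limma p below 0.05, in Dp1Rhr (left, red) and control (right, blue). Each point is 1 array, the bar beside it is the mean ± SD of 5 arrays, and in each of the 6 panels the 2 groups overlap.

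Sequence shared among promoters of the clustered genes includes a short core, CGCT, near their CTCF sites. The RefSeq promoter table (GRCm38.p6), which reaches from 250 bases before to 50 bases after a start site, held 10 windows of 9 non-clustered members. It held none for the other 25 members, among them Pcdh11x and all Pcdhb genes. The core could thus not be looked for in any clustered gene. CGCT or its reverse complement AGCG, counted on both strands with overlaps allowed, occurred in the windows of all 9 genes and in 61.8% of the 32851 windows of the same length in the table, which were not matched for G or C content. The 2 windows of Pcdh9 largely overlap and hold the same matches. The windows of Pcdh9 and Pcdh10 are shown, as the delta1 and the delta2 gene with the smallest p among those that have a window, 5′ to 3′ with every CGCT and AGCG in capitals.
Pcdh9 (minus strand, chr14:93890630-93890929): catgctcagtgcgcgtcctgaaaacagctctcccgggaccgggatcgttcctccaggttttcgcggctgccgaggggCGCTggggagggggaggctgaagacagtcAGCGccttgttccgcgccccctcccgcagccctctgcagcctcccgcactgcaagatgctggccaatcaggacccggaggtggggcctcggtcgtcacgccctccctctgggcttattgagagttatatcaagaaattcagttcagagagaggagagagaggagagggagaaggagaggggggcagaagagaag
Pcdh10 (plus strand, chr3:45378148-45378447): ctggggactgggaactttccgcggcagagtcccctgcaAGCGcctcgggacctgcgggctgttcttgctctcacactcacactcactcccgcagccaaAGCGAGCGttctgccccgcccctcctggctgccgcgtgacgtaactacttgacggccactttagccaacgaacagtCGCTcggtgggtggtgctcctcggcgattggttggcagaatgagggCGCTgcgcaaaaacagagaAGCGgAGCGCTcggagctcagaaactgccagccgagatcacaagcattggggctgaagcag
The Pcdh9 window held 2 matches in 62.7% G or C, and the Pcdh10 window held 8 in 62.3%. The windows thus differed in matches at a like share of G or C. They were not alike in C followed by G, which every match contains, with 18 in the Pcdh9 window and 24 in the Pcdh10 window. A match to 4 letters is a description and not a binding site.

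The 22 Pcdhb genes, each a protein-coding exon with its own promoter, run from Pcdhb1 (start at 37264998 on chromosome 18, GRCm38) to Pcdhb22 (end at 37521419). They are close paralogs, and a probe may also bind the transcript of a neighbour, so each value is the signal of its probe set. By mean signal over the 10 arrays, 17 of the 22 were at or above the 40th percentile of all genes (6.82) and 5 were dimmer. The median difference was -0.08 for the 17 and -0.06 for the 5, so the lower means were found in both parts of the signal range. No role of its own is known well enough to be given for any single Pcdhb gene, and as a group they encode homophilic isoforms that start cell-cell contacts by like-to-like binding.

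Of the 22 genes, 4 were lower at an unadjusted p below 0.05. Pcdhb17 had 7.06, 7.11, 7.24, 7.16 and 7.06 on the Dp1Rhr arrays, against 7.26, 7.25, 7.19, 7.42 and 7.20 on the control arrays, a difference of -0.14 ± 0.05 SE (95% confidence interval -0.24 to -0.03, limma adjusted p = 0.210, exact permutation p = 0.0317). Pcdhb13 had 7.05, 6.89, 6.89, 6.82 and 6.93 on the Dp1Rhr arrays, against 6.95, 7.19, 7.25, 7.12 and 6.95 on the control arrays, a difference of -0.17 ± 0.06 SE (95% confidence interval -0.31 to -0.04, limma adjusted p = 0.213, exact permutation p = 0.0476). In both genes 4 of 5 Dp1Rhr arrays lay below every control array. The exception was Dp1Rhr replicate 3 for Pcdhb17 and Dp1Rhr replicate 1 for Pcdhb13.

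Pcdhb19 had 7.14, 7.05, 7.19, 7.14 and 7.25 on the Dp1Rhr arrays, against 7.41, 7.42, 7.26, 7.28 and 7.12 on the control arrays, a difference of -0.14 ± 0.06 SE (limma adjusted p = 0.256, exact permutation p = 0.0714). Here 4 of 5 control arrays lay above every Dp1Rhr array, and control replicate 5 lay below 4 of the 5 Dp1Rhr arrays. Pcdhb16 had 7.58, 7.62, 7.83, 7.72 and 7.78 on the Dp1Rhr arrays, against 7.77, 7.82, 7.86, 7.78 and 7.80 on the control arrays, a difference of -0.10 ± 0.05 SE (limma adjusted p = 0.329, exact permutation p = 0.0873). Its control arrays were close together and its Dp1Rhr arrays spread out, with replicates 1 and 2 the lowest and replicates 3 and 5 within the control range.

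Pcdhb12 had a difference of -0.09 ± 0.04 SE (limma adjusted p = 0.341, exact permutation p = 0.0476), and Pcdhb15 one of -0.12 ± 0.05 SE (limma adjusted p = 0.334, exact permutation p = 0.0714). With the genes split by position, all 4 genes at an unadjusted p below 0.05 were among the 11 at the distal end. The median difference was -0.09 there and -0.06 for the 11 at the proximal end, with 9 of 11 means lower in each. This split was not planned beforehand, and a difference between the ends was not tested. The 4 genes with a mean at or above control were Pcdhb11 at 0.07 ± 0.06 SE, Pcdhb22 at 0.01 ± 0.04 SE, Pcdhb14 at 0.0038 ± 0.04 SE and Pcdhb9, with equal means to 2 decimals at 7.58 in both groups. The shared Pcdha probe set had 7.38, 7.29, 7.28, 7.32 and 7.32 on the Dp1Rhr arrays, against 7.34, 7.45, 7.39, 7.38 and 7.38 on the control arrays. That is a difference of -0.07 ± 0.03 SE (limma adjusted p = 0.310 over all annotated probe sets), and Dp1Rhr replicate 1 lay within the control range.

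**Figure D4:**
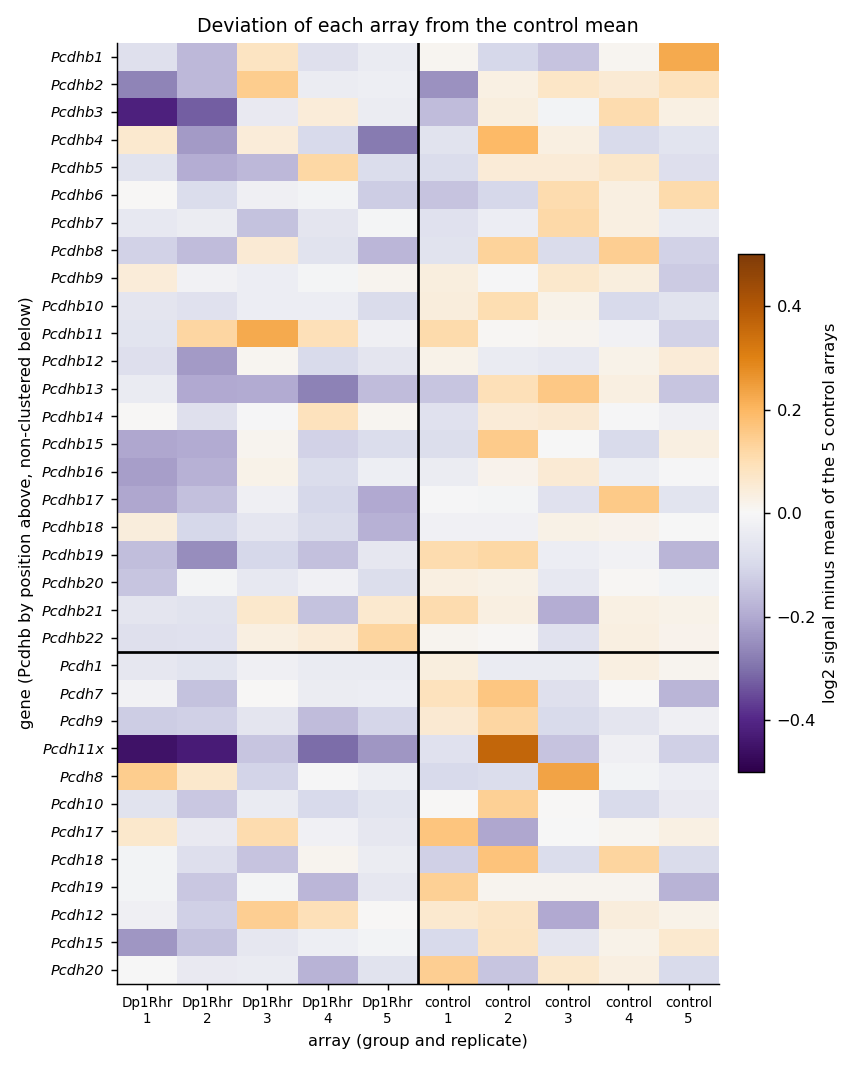
Log2 signal of each protocadherin gene (rows) on each array (columns, Dp1Rhr replicates left and control replicates right) minus the mean of the 5 control arrays, in colour from -0.5 to 0.5. Violet cells, lower than the control mean, gather most in Dp1Rhr replicate 2, with median deviations of -0.16 over Pcdhb and -0.12 over non-clustered genes. On Dp1Rhr replicate 1 these medians were -0.07 and -0.02. Of the 34 genes, 9 had their lowest value on Dp1Rhr replicate 1 and 7 on Dp1Rhr replicate 2. Orange cells gather in control replicate 2, where 10 genes had their highest value.

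The arrays did not contribute evenly. Of the 34 genes, 9 had their lowest value on Dp1Rhr replicate 1 and 7 on Dp1Rhr replicate 2, and 10 had their highest on control replicate 2. The mean over the 22 Pcdhb genes was 7.13, 7.10, 7.22, 7.18 and 7.16 on Dp1Rhr replicates 1 to 5, against 7.20, 7.26, 7.23, 7.25 and 7.21 on control replicates 1 to 5. Averaged over mice it was 7.16 ± 0.05 in Dp1Rhr and 7.23 ± 0.03 in control (SD, n = 5 each). The mean over the 12 non-clustered genes was 8.77, 8.72, 8.81, 8.76 and 8.78 on the Dp1Rhr arrays, against 8.86, 8.89, 8.81, 8.85 and 8.79 on the control arrays, or 8.77 ± 0.03 in Dp1Rhr and 8.84 ± 0.04 in control (SD, n = 5 each). For both groups of genes Dp1Rhr replicate 2 was the lowest array and control replicate 2 the highest, and only Dp1Rhr replicate 3 reached into the control range. These means describe a list chosen with results known and carry no test.

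**Figure D5:**
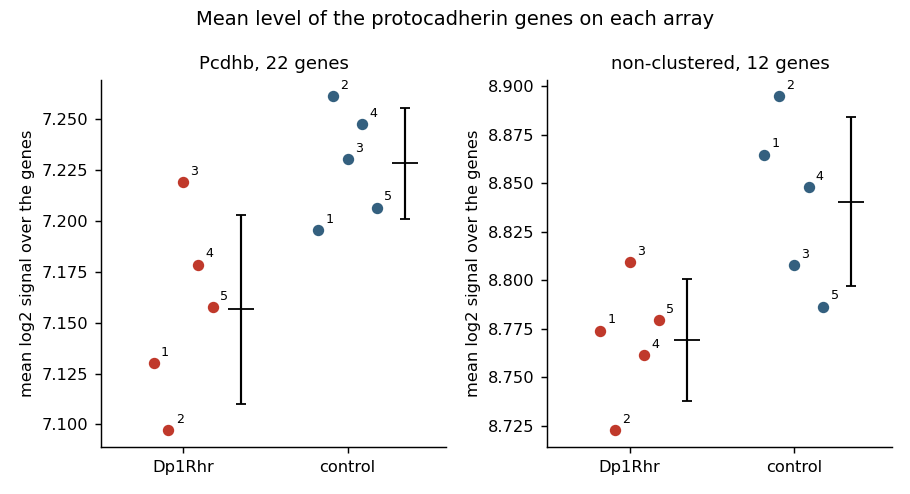
Mean log2 signal (y axes, which start above 0) over the 22 Pcdhb genes (left) and the 12 non-clustered genes (right) on each array, Dp1Rhr in red and control in blue, with replicate numbers and the mean ± SD of 5 arrays. In both panels Dp1Rhr replicate 3 is the array that overlaps the control arrays.

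After each group's mean was taken out, the deviations of a pair of Pcdhb genes over the 10 arrays correlated with a median of 0.14 over 231 pairs, and those of neighbouring Pcdhb genes with a median of 0.22 over 21 pairs. Pairs of non-clustered genes had a median of 0.12 over 66 pairs, and a Pcdhb gene with a non-clustered gene one of 0.12 over 264 pairs. A Pcdhb gene paired with any other gene had a median of 0.03. The highest single pair was Pcdhb19 with Pcdh7, at 0.92, and the lowest Pcdh8 with Pcdh12, at -0.88. All these pairs share the same 10 arrays and their normalization, and with so few arrays single values scatter widely.

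Genes that act on or with protocadherins, and relatives in the wider cadherin superfamily, were taken from 6 lists. In none of these lists did any gene pass the threshold. In the list on promoter choice and chromatin, 19 of 23 measured genes had a lower mean in Dp1Rhr, beside 50.1% of all genes, and 9 of the 23 were lower at an unadjusted p below 0.05, beside 6.44% of all genes. The median difference was -0.05, and 2 of the 23 had groups that did not overlap, beside 1.7% of all genes with Dp1Rhr lower. Tet3, which oxidises methylated cytosine, averaged 8.71 ± 0.08 in Dp1Rhr and 8.92 ± 0.06 in control (SD, n = 5 each), with all Dp1Rhr arrays below all control arrays and a difference of -0.20 ± 0.04 SE (limma adjusted p = 0.0651). Dnmt3a, a methyltransferase that sets new DNA methylation, averaged 8.11 ± 0.07 in Dp1Rhr and 8.29 ± 0.06 in control (SD, n = 5 each), again without overlap, a difference of -0.17 ± 0.04 SE (limma adjusted p = 0.0811). Ctcf, named after its values were seen because it anchors the loops of the clusters, differed by -0.07 ± 0.03 SE (limma adjusted p = 0.315). Whether these differences bear on those of the protocadherins was not tested.

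In the list of signalling and adhesion partners, 13 of 16 genes had a lower mean and the median was -0.04. Its smallest p belonged to Taok2, a kinase through which Pcdh8 acts on N-cadherin, with -0.14 ± 0.03 SE (limma adjusted p = 0.0782), and Nlgn3, a synaptic neuroligin, with -0.10 ± 0.03 SE. The WAVE complex split evenly, with 4 of 8 genes lower, among them Cyfip2 at -0.07 ± 0.03 SE, while Wasf3 stood at 0.13 ± 0.05 SE. In the shedding list, proteases that cut protocadherins, 1 of 8 genes was lower, Mmp14 at -0.07 ± 0.04 SE, and Aph1c, a gamma-secretase subunit, stood at 0.12 ± 0.06 SE.

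The hair cell tip link list, the partners of Pcdh15 in the inner ear, had 1 of 9 genes lower and a median of 0.04. It was led by Myo7a at 0.10 ± 0.05 SE and Clrn1 at 0.10 ± 0.05 SE. Most of this list was dim, namely Clrn1, Ush1c, Tmc1, Cdh23, Tmie and Tmc2. Over the wider cadherin superfamily, 25 of 42 genes were lower with a median of -0.01. The share below 0 was thus 59.5%, against 79.4% of the protocadherins and 50.1% of all genes. These lists were not matched for signal. Several cadherin genes were dim, both higher ones such as Cdh3 and Cdh1 and lower ones such as Cdh15 and Cdh16. The difference in shares was not tested. Celsr2, an atypical cadherin of planar polarity and axon tracts, had the smallest p there, at -0.18 ± 0.04 SE with no overlap (limma adjusted p = 0.0731). Fat4, a giant cadherin of growth and polarity, stood at -0.32 ± 0.09 SE (limma adjusted p = 0.117).

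Over all genes 160 passed the threshold, 125 higher and 35 lower in Dp1Rhr, but the count was 5 without Dp1Rhr replicate 1 and 284 without Dp1Rhr replicate 5. Arrays correlated with each other at 0.996 to 0.998. Markers of pyramidal and granule neurons, among them Camk2a, Prox1 and Wfs1, had a mean over the 10 markers of 10.74 to 10.79 on the Dp1Rhr arrays and 10.72 to 10.77 on the control arrays, where the median over all probe sets of an array was 6.77 to 6.83. Of these neuron markers 5 of 10 were higher (median 0.0055), while Camk2a was lower without overlap, at -0.03 ± 0.02 SE. Markers of neighbouring tissue differed more, since 10 of 10 choroid plexus markers had a higher mean in Dp1Rhr, with a median difference of 0.89. Their mean ranged from 8.46 to 9.35 over the Dp1Rhr arrays and from 7.03 to 8.96 over the control arrays, with 7.03 on control replicate 2 and 7.14 on control replicate 3. Markers of meninges and fibroblasts (9 of 10 higher, median 0.12) and of endothelium (6 of 7 higher, median 0.12) leaned the same way. Oligodendrocyte precursor markers (4 of 6 higher, median 0.04) and interneuron markers (5 of 7 higher, median 0.04) differed less. Of astrocyte markers 4 of 6 were higher (median 0.05), while Slc1a2 and Gja1 were lower without overlap. Neocortex markers split evenly (2 of 4 higher, median -0.04), and control replicate 2 was their highest array, at 9.31. Markers of thalamus and habenula were split (8 of 10 higher, median 0.15), with habenular Chrna3 at 1.17 ± 0.49 SE. Thalamic Tcf7l2 stood at -0.86 ± 0.22 SE (limma adjusted p = 0.0901) and Rora at -0.25 ± 0.10 SE. In the same list, Lef1 stood at 0.06 ± 0.08 SE and Prkcd at 0.00054 ± 0.19 SE. Without control replicates 2 and 3, 30 of the 34 protocadherin genes had a lower mean in Dp1Rhr, with medians of -0.07 for Pcdhb and -0.06 for non-clustered genes, and 0 passed the threshold. Control replicates 2 and 3 were the lowest in choroid plexus markers, but control replicate 3 was the highest control array in those of thalamus and habenula, at 8.14. The part of the tissue makeup in the protocadherin values was not tested.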

How the data were processed

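Total RNA of the hippocampus of 5 Dp1Rhr and 5 control mice was hybridised to Affymetrix Mouse Gene 1.0 ST arrays, 1 per mouse, per the labels. The authors made log2 values with RMA (background correction, quantile normalization, probe summary) and deposited them. The submitters' processing notes name RMA, limma and mm10. Versions, and which arrays were normalized together: not given in the sources used here. Values carry no depth, and the number of arrays limits the precision.

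Of 35556 probe sets, 21789 had 1 gene symbol in the platform annotation, 1621 had several and 12146 were not listed. Several probe sets named the same gene in 999 cases, and the brightest on average was then kept, which gave 19938 genes. Entrez identifiers matched 34 of 34 protocadherin genes to RefSeq (GRCm38). Dp1Rhr was compared with control by limma 3.58.1 in R 4.3.3 (lmFit, eBayes, two-sided, Benjamini-Hochberg adjustment over all genes, threshold 0.05), tested on simulated data. The labels call the samples biological replicates. A protocadherin gene's values on every array were given where its unadjusted p was below 0.05 or its groups did not overlap, and in each partner list the 2 genes with the smallest p were named. FCROS, the method of the study, calls near-fixed tails of ranked fold changes (trim 0.25, limits 0.025 and 0.975) and served as an alternative, with those of the closing section. It was coded anew and run on 1 probe set per gene, so its calls need not match those of the study. The members and lists were chosen with earlier results of these data known.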

Additional observations from a re-analysis of the deposited data

Results flagged for a closer look

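Each group of 5 arrays was checked for an array at its edge whose distance to the nearest other array, divided by the range of the group, was above 0.71. Of 72 groups checked, 8 held such an array. Chance gives about 1 in 20 only for independent groups with normally distributed values. These groups share the same arrays, so an excess over chance was not tested. In Dp1Rhr it was replicate 2 for Pcdh7, the lowest at 8.70 with the next at 8.81. In control, replicate 3 was concerned for 4 genes: it was the lowest for Pcdhb21 (5.95, next 6.17), Pcdhb22 (7.04, next 7.12) and Pcdh12 (6.08, next 6.31), and the highest for Pcdh8 (8.40, next 8.16). Control replicate 2 was the highest for Pcdh11x (8.99, next 8.60), control replicate 4 the highest for Pcdhb17 (7.42, next 7.26), and control replicate 1 the lowest for Pcdhb2 (7.95, next 8.22). Without the flagged array the difference was -0.22 in Pcdh11x, against -0.31 with it, and -0.10 in Pcdhb17, against -0.14 with it. In Pcdh7 it was -0.02, against -0.05 with all arrays. Other differences moved away from 0, to -0.13 in Pcdhb2, against -0.07, and to -0.08 in Pcdhb21, against -0.03. Pcdh8 moved to 0.07, against 0.01. Pcdhb22 and Pcdh12 changed sign, to -0.0048, against 0.01, and to -0.03, against 0.02.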

How the results depend on the processing

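No protocadherin gene passed the limma threshold under any alternative run with limma, and the smallest adjusted p of a member was 0.0766 (Pcdh11x with array weights). FCROS called 2 of the 34, Pcdh11x and Pcdhb13, both lower, and 1075 of all genes (5.39%). The count of 160 over all genes was 280 with array weights and 5 without control replicates 2 and 3, and with single arrays left out it ranged from 5 (without Dp1Rhr replicate 1) to 284 (without Dp1Rhr replicate 5), with 10 and 12 without Dp1Rhr replicates 2 and 4, and 19, 42 and 12 without control replicates 2, 3 and 5. A second quantile normalization moved the median over all genes to 0.0060. Both groups carry replicate numbers 1 to 5, which are not said to pair mice. The deviations of same-numbered arrays correlated from -0.34 to 0.12, and no array correlated best with its own number. With the replicate block 4 genes passed in all and 0 protocadherins.

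With single arrays left out, the median difference ranged from -0.09 to -0.06 for Pcdhb and from -0.09 to -0.04 for non-clustered genes, the count of lower means from 27 to 30, and the count of members past the threshold stayed at 0. The difference changed sign in at least 1 alternative for 6 genes, whose differences with all arrays were at most 0.02 in size after rounding, and in none for the other 28. Without control replicates 2 and 3 it was -0.0089 for Pcdhb22, -0.059 for Pcdh17 and -0.021 for Pcdh12. After a second quantile normalization it was -0.011 for Pcdhb9 and -0.0056 for Pcdhb14, and with array weights -0.011 for Pcdh17 and -0.0066 for Pcdh12. With single arrays left out it ranged from -0.033 to 0.016 for Pcdhb9, from -0.017 to 0.023 for Pcdhb14, from -0.016 to 0.036 for Pcdhb22, from -0.020 to 0.072 for Pcdh8, from -0.041 to 0.051 for Pcdh17 and from -0.030 to 0.055 for Pcdh12. The causes were not tested. Medians for Pcdha and Pcdhg have no value, since no gene of either had a probe set of its own here.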
